A study of Homo sapiens with 35 samples.

Results

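RPMI-8226 is an established human multiple myeloma line, that is, a line of malignant antibody-secreting plasma cells. Transcript levels of 9 enzymes of the tricarboxylic acid cycle were followed in these cells during their recovery from carfilzomib, an irreversible inhibitor of the proteasome. The 9 genes are CS, IDH3A, IDH3B, IDH3G, OGDH, SUCLG1, SUCLA2, FH and MDH2. They were chosen by function and symbol and not by a cutoff on their values, but with earlier results of these data known. They are the protein-coding entries of these symbols among 19665 protein-coding entries, of which 17999 had a count in any library and were tested. All 9 were tested, and all 9 also passed the filter of edgeR on low counts, as did 12301 entries in all.

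The cells received carfilzomib at 750 nM for 1 h and were then kept in fresh medium without the drug, which was replaced every 48 h. RNA was sequenced from 5 subcultures on each of days 0, 1, 2, 4, 6, 8 and 10, which gave 35 libraries. The labels list the carfilzomib treatment for the day 0 libraries as well, whereas the methods of the study place their collection before the drug was added, so day 0 is taken as the untreated state. From day 2 on the cells were collected right before a medium change, and the density of the cultures was reset on days 6 and 8. On day 0 the cells had been adjusted to their density in fresh medium before collection. No untreated culture was sequenced on the later days. In each comparison with day 0, effects of the drug, of time in culture and of the medium therefore cannot be told apart. The subcultures were split from 1 expanded culture of a single line, so the spread between them covers culture and library preparation and not separate experiments. In bulk samples such as these, fewer cells of a kind and less RNA per cell cannot be told apart. Oxygen consumption, protein and metabolite levels were not analysed here.

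The tricarboxylic acid cycle runs in the mitochondrial matrix. Citrate synthase joins acetyl-CoA to oxaloacetate, isocitrate dehydrogenase and the oxoglutarate dehydrogenase complex release carbon dioxide and reduce NAD, succinate-CoA ligase makes ATP or GTP, and succinate dehydrogenase, fumarase and malate dehydrogenase return the carbon to oxaloacetate. The reduced NAD feeds the respiratory chain, and citrate and oxoglutarate that leave the cycle supply lipid and amino acid synthesis, so that proliferating cells run the cycle for building blocks as well as for energy. The 9 genes code for citrate synthase (CS), the catalytic alpha subunit (IDH3A) and the beta and gamma subunits (IDH3B, IDH3G) of NAD-dependent isocitrate dehydrogenase, the first enzyme of the oxoglutarate dehydrogenase complex (OGDH), the alpha subunit (SUCLG1) and the ATP-forming beta subunit (SUCLA2) of succinate-CoA ligase, fumarase (FH) and mitochondrial malate dehydrogenase (MDH2).

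The genes lie on 8 chromosomes. In GENCODE release 44 (build GRCh38, with start, end and strand as annotated) CS is at chr12:56271699-56300391 on the minus strand, IDH3A at chr15:78131498-78171945 on the plus strand, IDH3B at chr20:2658395-2664219 on the minus strand, and IDH3G at chrX:153785766-153794512 on the minus strand. OGDH is at chr7:44606572-44709066 and MDH2 at chr7:76048051-76067508, both on the plus strand. SUCLG1 is at chr2:84423528-84460045, SUCLA2 at chr13:47745736-48037968 and FH at chr1:241497511-241519799, all on the minus strand. The MANE Select transcript, which is the reference transcript agreed on by RefSeq and GENCODE, has 9 exons in SUCLG1 and MDH2 and up to 23 exons in OGDH.

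Promoters of 8 of the 9 genes were matched in RefSeq (GRCh38.p14), each running from 250 bases before to 50 bases after the annotated start. OGDH had no entry. Shown are the 3 subunits of NAD-dependent isocitrate dehydrogenase, whose transcripts moved unlike each other, and SUCLG1 and FH, which had the largest rises on days 1 and 2. The sequences run 5′ to 3′ on the strand of the gene, and capitals mark matches to the motifs given after them.

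IDH3A, chr15:78149112-78149411, plus strand: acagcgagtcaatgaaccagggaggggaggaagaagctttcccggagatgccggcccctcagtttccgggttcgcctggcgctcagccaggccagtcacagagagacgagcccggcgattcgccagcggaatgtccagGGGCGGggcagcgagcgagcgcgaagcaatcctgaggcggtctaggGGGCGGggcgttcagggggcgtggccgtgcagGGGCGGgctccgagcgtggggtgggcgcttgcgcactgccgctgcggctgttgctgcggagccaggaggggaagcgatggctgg
IDH3B, chr20:2664167-2664466, minus strand: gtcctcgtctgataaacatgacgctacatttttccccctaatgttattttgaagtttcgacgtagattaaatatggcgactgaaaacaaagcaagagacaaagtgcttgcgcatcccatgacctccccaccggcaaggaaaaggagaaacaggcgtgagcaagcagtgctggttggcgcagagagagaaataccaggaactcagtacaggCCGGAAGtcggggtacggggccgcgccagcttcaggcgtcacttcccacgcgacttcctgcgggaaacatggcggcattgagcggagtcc
IDH3G, chrX:153794326-153794625, minus strand: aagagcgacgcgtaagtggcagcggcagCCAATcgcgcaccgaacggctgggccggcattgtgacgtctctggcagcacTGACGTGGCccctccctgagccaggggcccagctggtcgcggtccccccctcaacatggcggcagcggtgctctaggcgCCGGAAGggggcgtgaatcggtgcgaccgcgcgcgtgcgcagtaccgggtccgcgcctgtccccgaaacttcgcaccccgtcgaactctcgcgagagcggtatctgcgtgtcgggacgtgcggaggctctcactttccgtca
SUCLG1, chr2:84459231-84459530, minus strand: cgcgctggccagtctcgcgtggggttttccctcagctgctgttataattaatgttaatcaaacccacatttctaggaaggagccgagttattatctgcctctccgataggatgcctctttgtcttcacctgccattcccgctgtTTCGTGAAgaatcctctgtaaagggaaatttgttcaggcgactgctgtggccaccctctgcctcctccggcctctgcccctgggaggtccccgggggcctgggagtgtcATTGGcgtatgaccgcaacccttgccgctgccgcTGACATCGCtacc
FH, chr1:241519706-241520005, minus strand: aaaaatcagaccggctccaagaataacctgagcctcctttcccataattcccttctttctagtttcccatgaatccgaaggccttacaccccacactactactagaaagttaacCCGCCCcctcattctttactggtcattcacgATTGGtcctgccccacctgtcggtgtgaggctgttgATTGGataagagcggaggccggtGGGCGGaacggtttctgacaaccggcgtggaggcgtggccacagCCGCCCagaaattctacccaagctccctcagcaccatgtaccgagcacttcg

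In total 10 short motifs were searched on both strands of the 8 promoters and of all 35116 RefSeq promoters of the same length. The GC box (GGGCGG) was found in CS, FH, IDH3A and SUCLA2 and in 45% of all promoters. The CCAAT box (CCAAT) was found in CS, FH, IDH3G, SUCLA2 and SUCLG1 and in 34.6% of all promoters. The ETS core (CCGGAAG), which is bound by factors such as GABP, was found in IDH3B, IDH3G and MDH2 and in 10.3% of all promoters. The ERR element (AAGGTCA) was found in SUCLA2 and in 3.92% of all promoters. The antioxidant response element (TGACNNNGC) was found in IDH3G and SUCLG1 and in 13.3% of all promoters, and the heat shock element (TTCNNGAA) in SUCLG1 and in 7.74% of all promoters. The NRF1 core (GCATGCGC), the E-box (CACGTG), the cyclic AMP response element (TGACGTCA) and the ATF4 element (TGATGNAA) were in none of the 8 windows, and in 3.05%, 7.26%, 1.85% and 3.62% of all promoters. No 2 matches overlapped in the sequences shown. Of the 3 subunits shown, IDH3A carried GC boxes alone, and IDH3B a single ETS core 40 bases before its start. These matches describe letters in a window and no binding was measured.

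The deposited values are estimated counts, given for each symbol and transcript biotype, and the protein-coding entry of each symbol was used unless stated otherwise. Libraries held 6519392 to 10962890 counts. Levels are given as CPM, that is, counts scaled to a common library size after normalization with trimmed means of M values (TMM). All 8 plasma cell markers were found in every library, at 11.2 to 724 CPM, and markers of other cell types were found as well. The B cell markers MS4A1 and PAX5 were present in every library, at 3.73 to 13.3 and 0.963 to 4.71 CPM. Of the T cell markers CD3E was in every library, at 0.441 to 4.81 CPM, whereas CD3D and CD2 were at 0 in 32 of 35 each. The monocyte markers CD14, LYZ and CSF1R were at 0 in 7, 28 and 21 libraries, and the stromal markers COL1A1, PDGFRB and COL1A2 in 6, 10 and 35, and none of these 6 exceeded 2.15 CPM. The epithelial markers EPCAM and KRT8 were present in every library, at 43.97 to 95.7 and 9.78 to 43.1 CPM. The part of these genes in the results was not tested.

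**Figure D1:**
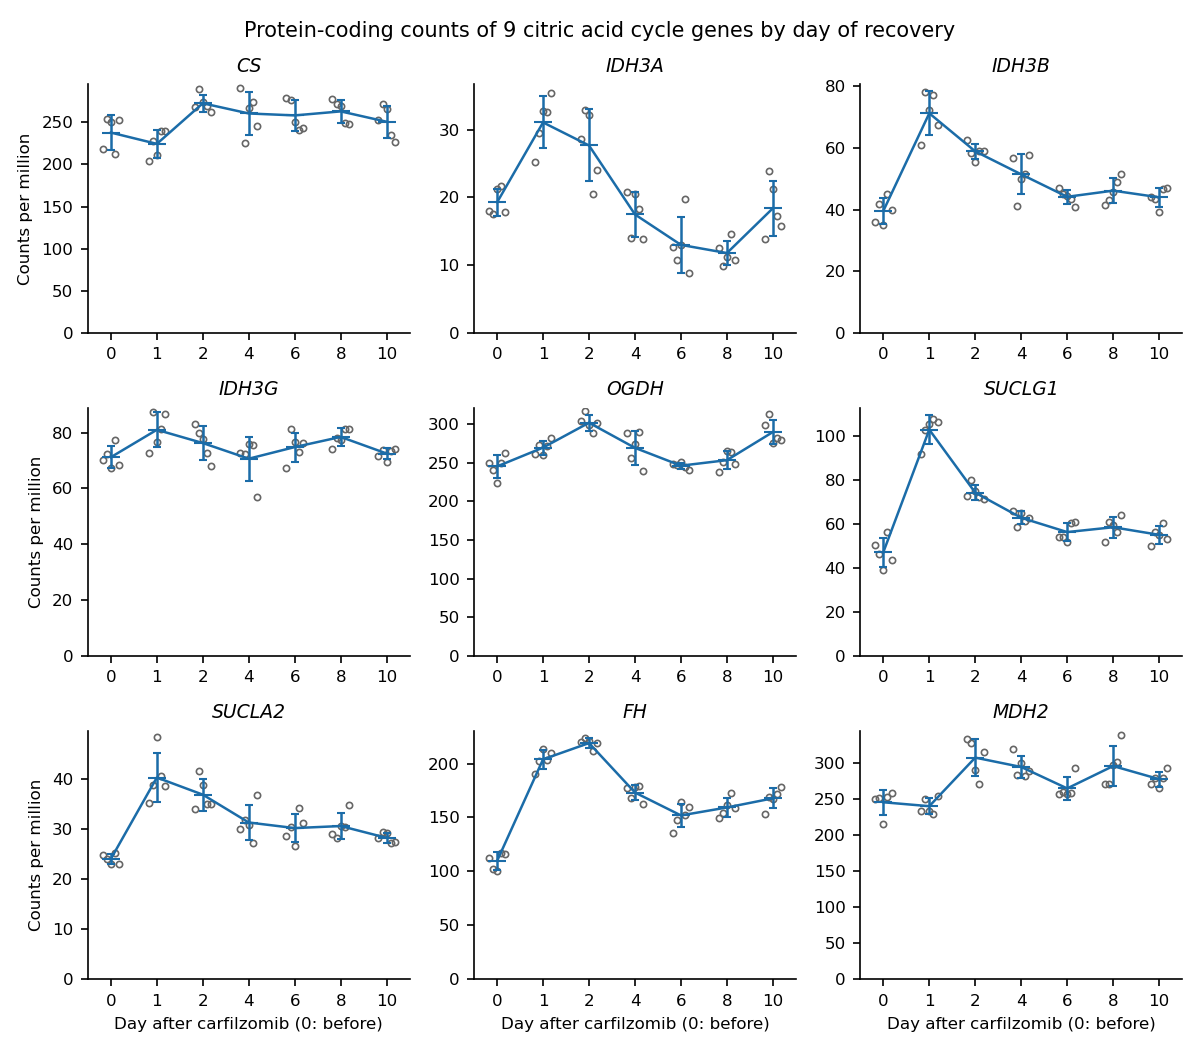
CPM of the 9 genes (y axis, starting at 0 and scaled per gene) by day after carfilzomib (x axis). Circles are the 5 libraries of a day, and lines join the means with bars of 1 SD. SUCLG1, SUCLA2 and IDH3B had their highest mean on day 1 and FH on day 2, and IDH3A went below day 0 by day 8.

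Between genes, levels were compared per length. The authors had already adjusted the counts for length, so this division may correct for it a second time. The MANE Select length need also not be that of the transcripts counted. Per kilobase of the MANE Select transcript, MDH2 was the most abundant of the 9 on day 0 with 113 ± 7.93 CPM per kilobase (SD, n = 5). CS followed with 81.6 ± 7.08, FH with 61.2 ± 4.49, OGDH with 58.5 ± 3.45 and IDH3G with 53.3 ± 2.98 CPM per kilobase. The libraries of FH (55.8 to 65.3), OGDH (53.4 to 62.8) and IDH3G (50.3 to 57.9) overlapped, so these 3 cannot be ordered. SUCLG1 (37.2 ± 5.20), IDH3B (25.6 ± 2.72), SUCLA2 (11.4 ± 0.486) and IDH3A (4.72 ± 0.496) came last on the same scale, with no overlap between neighbours. The coding entries of the 3 subunits of NAD-dependent isocitrate dehydrogenase thus differed widely in level, with IDH3A the lowest. For IDH3A this level leaves out most counts of the symbol, as described further on. Before division by length, MDH2 (246 ± 17.2 CPM), OGDH (245 ± 14.5 CPM) and CS (238 ± 20.6 CPM) were alike on day 0. The order of these genes per kilobase thus rests on the division.

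On day 1 the transcripts of 7 of the 9 genes rose and none fell, with the largest rises in SUCLG1, FH, IDH3B and SUCLA2. Over the 5 time points from day 2 to day 10 there were 8, 6, 3, 5 and 5 rises, and the only falls were 1 on day 6 and 1 on day 8, both of IDH3A. Differences were called at an adjusted p (Q) of 0.05 or less in the quasi-likelihood test of edgeR, adjusted over all 17999 entries of a comparison. For the days with no fall, the count of falls was also 0 at an unadjusted p below 0.05 and in DESeq2.

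These counts stand beside a response that touched much of the transcriptome. On day 1 25.4% of all tested entries were called higher and 27.3% lower. Over the 5 time points from day 2 on, the share called higher was 23.2%, 19%, 17.5%, 18.2% and 16.1%, and the share called lower was 24.4%, 20.1%, 17%, 18.6% and 15.8%. Over the 7 days 64.7% of entries differed, as did 8 of the 9 genes, all but IDH3G (adjusted p = 0.0623). The shares here and below are over all 17999 tested entries, of which 12301 passed the filter on low counts, while all 9 genes passed it. Shares among the entries that passed are not given, so the 9 genes are not set against genes of a like level. A rise of over 2-fold on day 1 was called for SUCLG1 alone among the 9, and for 7.27% of all entries. The median log2 fold change of the 9 genes was 0.69, 0.54, 0.26, 0.12, 0.22 and 0.18 over the 6 later time points, while that of all tested entries lay between -0.06 and 0. The count on day 10 rested on 1 day 0 library, since without replicate 3 of day 0 it was 2 and not 5.

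Citrate synthase catalyses the entry step of the cycle. CS stood at 219, 254, 251, 212 and 253.5 CPM in the 5 day 0 libraries and at 204, 228, 211, 239 and 240.1 CPM on day 1. The groups overlapped, and the log2 fold change of -0.08 ± 0.06 (SE) was not called (adjusted p = 0.293). On day 2 all 5 libraries, at 262 to 289 CPM, lay above every day 0 library, and CS rose by 0.20 ± 0.06 (adjusted p = 0.00944). On days 4 to 10 the log2 fold change was 0.08 to 0.15 and was not called on any of these 4 days. The call on day 2 was lost without replicate 1 (0.15) or 4 (0.14) of day 0. CS passed on day 4 without replicate 2 or 5 of day 0 (0.18 each) or replicate 2 (0.20) or 5 (0.17) of day 4, and on day 8 without replicate 2 or 5 of day 0 (0.19 each) or replicate 4 or 5 of day 8 (0.18 each). The sign on day 1 depended on the scaling, since without TMM factors it was 0.03. With counts summed over all transcript classes of the symbol, CS was called lower on day 1 (-0.13, adjusted p = 0.0136) and higher on day 10 (0.13, adjusted p = 0.0273).

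NAD-dependent isocitrate dehydrogenase carries out the first decarboxylation, and its alpha subunit holds the catalytic site. IDH3A was at 18, 17.5, 21.3, 21.6 and 17.9 CPM on day 0. On day 1 it was at 25.3, 29.4, 32.7, 32.6 and 35.3 CPM, with every library above those of day 0, and the log2 fold change was 0.69 ± 0.16 (adjusted p = 0.000227). On day 2 it was at 28.6, 32.9, 32.2, 20.5 and 24.1 CPM, where the lowest library overlapped with day 0, and the rise was 0.54 ± 0.16 (adjusted p = 0.00382).

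By day 8 IDH3A had reached its lowest mean, at 12.6, 9.87, 11.1, 14.5 and 10.7 CPM in the 5 libraries. All of them were below every day 0 library, and the log2 fold change was -0.71 ± 0.17 (adjusted p = 0.00085), or 0.613 times the day 0 level. On day 6 the libraries were at 12.7, 10.8, 12.95, 19.7 and 8.76 CPM, with 4 of 5 below day 0 (-0.57 ± 0.17, adjusted p = 0.00682). On day 10 they were spread from 13.9 to 23.9 CPM around the day 0 values (-0.06 ± 0.16, adjusted p = 0.868). The coding entry had few counts (385 over the 5 libraries of day 8), and its biological coefficient of variation was 0.158 against 0.0489 to 0.0718 for the other 8 genes.

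The beta subunit is needed, with the gamma subunit, for assembly and control of the enzyme. IDH3B was at 35.9, 41.9, 35.03, 45.1 and 39.8 CPM on day 0 and at 61.0, 78.2, 72.3, 77.4 and 67.5 CPM on day 1. All day 1 libraries lay above those of day 0, with a log2 fold change of 0.85 ± 0.08, or 1.81-fold (adjusted p = 4.29e-12). Its rises on days 2, 4 and 8 were 0.58, 0.38 and 0.22 (SE 0.08 each), and the values of 0.16 on days 6 and 10 were not called. The call on day 8 was lost without replicate 1 (0.20) or 3 (0.18) of day 0, or replicate 4 (0.215) or 5 (0.20) of day 8. IDH3G was at 67.2 to 77.4 CPM on day 0 and at 72.8 to 87.4 CPM on day 1, where the groups overlapped and the rise was 0.19 ± 0.07 (adjusted p = 0.017). On the later days its log2 fold change was between -0.01 and 0.14 and was not called, with adjusted p from 0.0976 to 0.991. Its call on day 1 was lost without replicate 1 or 5 of day 0 (0.16 each) or replicate 2 (0.16) or 5 (0.15) of day 1, and day 8 passed without replicate 4 of day 0 (0.19) or replicate 1 of day 8 (0.18). With counts summed over all transcript classes, IDH3G was called lower on day 4 (-0.15, adjusted p = 0.0426).

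These differences between subunits were tested within libraries, as the log2 ratio of their CPM. The scaling of a library enters this ratio only through the small prior count that was added before taking logs. Over 4 pairs and 6 days, 24 ratios were compared with day 0 by an exact two-sided permutation test of 5 against 5 libraries, where the smallest possible p is 0.00794, and 8 passed after Benjamini-Hochberg adjustment. The log2 ratio of IDH3B to IDH3G was -0.97, -0.78, -0.93, -0.77 and -0.78 on day 0 and -0.25, -0.16, -0.08, -0.07 and -0.36 on day 1. Every day 1 library was above those of day 0, by 0.66 in the mean (exact permutation p = 0.00794, adjusted p = 0.0317). On day 2 the difference was 0.48 with the same p. It was 0.39 on day 4, with 4 of 5 libraries above day 0 (exact permutation adjusted p = 0.0693), and 0.08 to 0.13 on days 6 to 10, which did not pass.

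The log2 ratio of IDH3A to IDH3G was -1.95, -2.03, -1.65, -1.82 and -1.92 on day 0, and -2.53, -2.95, -2.76, -2.46 and -2.89 on day 8. The ratio was thus lower in every day 8 library, by a mean difference of -0.84 (exact permutation adjusted p = 0.0317), after it had been higher on day 1 by 0.49 and on day 2 by 0.40 (exact permutation adjusted p = 0.0317 and 0.0476). IDH3A also went below IDH3B relative to day 0, with differences of -0.53 on day 4 and -0.93 on day 8 (exact permutation adjusted p = 0.0317 for both). On day 6 the differences of -0.77 against IDH3B and -0.67 against IDH3G had 4 of 5 libraries below day 0 and did not pass (exact permutation adjusted p = 0.0635 and 0.0693). On day 10 neither ratio of IDH3A passed, at -0.24 and -0.11. With 4 against 5 libraries the smallest exact p is 0.0159, and of the 24 ratios 0 passed without any single library of day 0, 4 without replicate 1, 2, 4 or 5 of day 1, and 5 without replicate 1, 2, 3 or 5 of day 2.

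**Figure D2:**
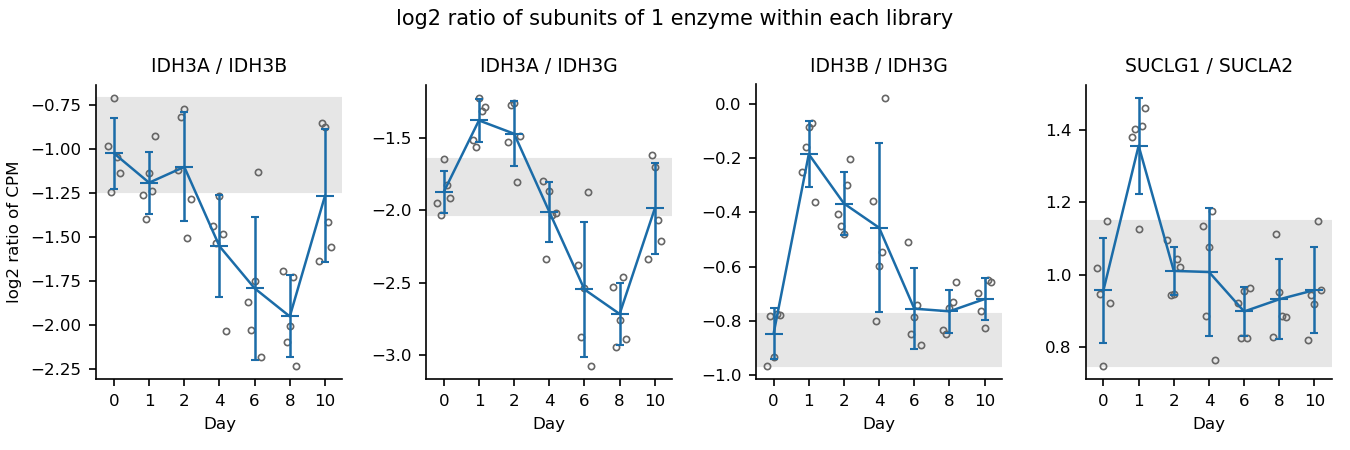
The log2 ratio of CPM between subunits of the same enzyme (y axis, scaled per panel) by day (x axis). Circles are the 5 libraries of a day, lines join means with bars of 1 SD, and the grey band spans the day 0 libraries. The ratio of IDH3A to IDH3G lies above the band on day 1 and below it on day 8, and that of SUCLG1 to SUCLA2 leaves the band on day 1, with 1 library inside it.

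The file gives estimated counts of a symbol apart for coding transcripts, processed transcripts, transcripts subject to nonsense-mediated decay, and transcripts with a retained intron. The shares below are thus estimates and not reads counted directly for each class. They can vary widely between libraries of a day. For CS on day 1, transcripts subject to nonsense-mediated decay held from 0.276% to 15.2% of the counts. The split between these classes differed between the subunits. The coding entry of IDH3A held 25.9% ± 2.35 (SD, n = 5) of the symbol's counts on day 0 and between 21.4% and 29.7% on the later days, while processed transcripts held 51.6% to 61.9%. None of the 6 differences in this share passed, with exact permutation adjusted p from 0.0857 to 0.495. Summed over all classes, IDH3A gave log2 fold changes of 0.56, 0.47, -0.22, -0.42, -0.40 and -0.18 over the 6 later time points, and all 6 were called. The rise and later fall were thus seen on the whole symbol also, at smaller size on day 8.

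IDH3B was the gene with the largest shift between classes. Its coding entry held 69.1% ± 8.30 of the counts on day 0, with libraries from 59.9% to 82.4%, and 92.1% ± 3.72 on day 1, with libraries from 85.7% to 95.5%. On every later day the mean lay between 87.0% and 90.8%, and all 5 libraries of each day were above those of day 0 (exact permutation p = 0.00794, adjusted p = 0.0357 over 54 tests, on each of the 6 days). The counts that moved were those with a retained intron, at 29.9% on day 0, 6.94% on day 1 and 8.24% to 11.96% after that. In estimated counts these were 508 of 1672 over the 5 day 0 libraries and 166 of 2379 over the 5 day 1 libraries. Summed over all classes, the log2 fold change of IDH3B was 0.50 and 0.24 on days 1 and 2, both called. It was 0.03 on day 4, which was not called, and -0.17 on day 6, which was called lower (adjusted p = 0.0496). The rise of IDH3B on days 4 and 8 was therefore seen in the coding entry and not in the sum over the symbol.

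**Figure D3:**
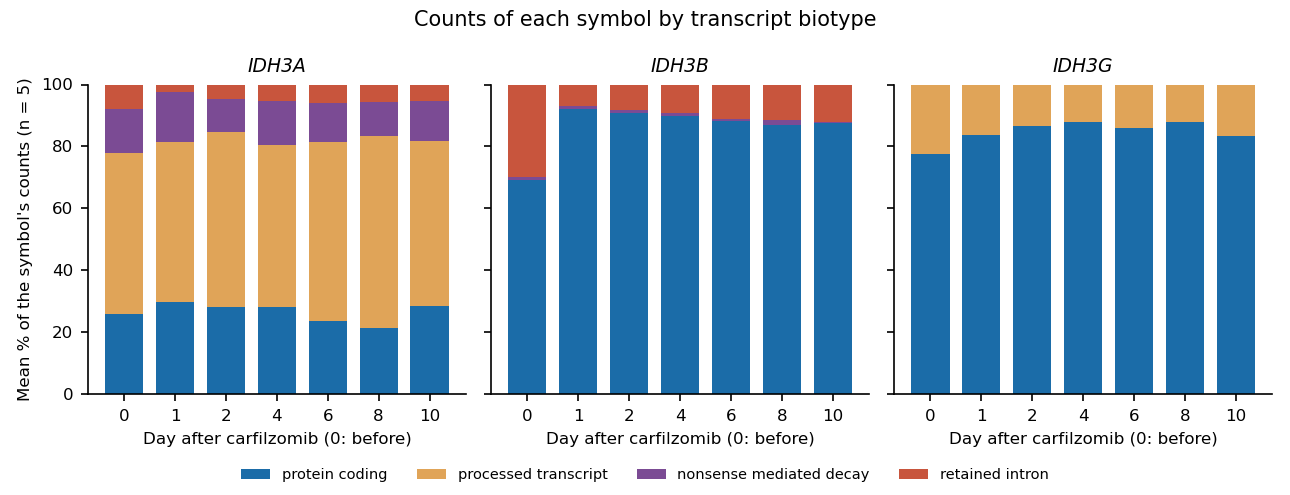
Mean percentage of a symbol's counts in each transcript class (y axis, 5 libraries) by day (x axis) for the 3 subunits of NAD-dependent isocitrate dehydrogenase. The coding part of IDH3B goes from 69.1% on day 0 to 92.1% on day 1, and that of IDH3A stays under 30% on every day.

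Across all 54 tests of coding share, 12 passed and all were higher than on day 0. Besides the 6 of IDH3B, they were IDH3G on day 4 (77.7% to 87.9%), SUCLG1 on day 2 (80.9% to 93.0%), and OGDH on days 1, 2, 8 and 10, where the change was under 1 percentage point of a share above 99%. Without replicate 1, 2, 3 or 5 of day 0 none passed, and without replicate 4 of day 0 it was 21 of the 54. With 4 against 5 libraries the smallest exact p is 0.0159, which limits what can pass after adjustment over 54 tests. The size of the IDH3B shift held whichever library was left out. It was 20.7 to 26.3 percentage points on day 1 and 15.6 to 21.2 on day 8. Over 11190 protein-coding symbols with a median of at least 20 counts, the median change in coding share was 0.422, 0.571, 0.390, 0.0818, 0.295 and 0.141 percentage points over the 6 later time points, and the pooled share was 86.9% on day 0, 89.5% on day 1 and 87.8% on day 6. The median symbol thus changed most on days 1 and 2 and least on day 6. The pooled share was higher than on day 0 on each later day, at 87.8% to 89.7%. How many of all symbols pass the same permutation test is not given here, so 12 of 54 has no background share beside it.

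The oxoglutarate dehydrogenase complex makes succinyl-CoA, and OGDH is its substrate-binding first enzyme. OGDH was at 224 to 263 CPM on day 0 and at 259.9 to 282 CPM on day 1, where 3 of 5 libraries were above day 0 and the rise was 0.14 ± 0.05 (adjusted p = 0.0184). On day 2 it was at 304, 317, 299, 288 and 302 CPM, above every day 0 library, with a rise of 0.30 ± 0.05 (adjusted p = 1.74e-06). It was close to day 0 on day 6 (0.01 ± 0.05, adjusted p = 0.986) and higher again on day 10, at 276 to 313 CPM (0.24 ± 0.05, adjusted p = 0.000133). The call on day 1 was lost without replicate 2 (0.12) or 3 (0.11) of day 0 or replicate 5 of day 1 (0.11), and that on day 4 (0.14 ± 0.05) without replicate 3 of day 0 (0.10) or replicate 1 (0.11), 3 (0.13) or 4 (0.11) of day 4. Nor did day 1 pass with RLE factors (0.109, adjusted p = 0.0547), or day 4 in a fit of those days alone (0.149, adjusted p = 0.0581). Of the other enzymes of the complex, DLD, the E3 enzyme that is shared with pyruvate dehydrogenase, rose from 122 ± 10.9 to 272 ± 18.2 CPM on day 1 (log2 fold change 1.16, adjusted p = 1.9e-16), and DLST, the E2 enzyme, was at 62.1 ± 6.10 and 54.9 ± 5.29 CPM (-0.18, adjusted p = 0.0565).

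Succinate-CoA ligase pairs the alpha subunit with a beta subunit for ATP or for GTP. SUCLG1 was at 50.5, 46.5, 39.0, 56.3 and 43.7 CPM on day 0 and at 92.0, 103, 106, 108 and 107 CPM on day 1. The groups were far apart, and the rise of 1.13 ± 0.07 on the log2 scale, or 2.18-fold, was the largest of the 9 genes (adjusted p = 2.72e-17). It then went to 0.66, 0.41, 0.26, 0.31 and 0.23 over the later time points, and was called at each of them. The value on day 10 did not pass when counts were summed over all classes (0.11, adjusted p = 0.166), nor without replicate 3 of day 0 (0.17) or replicate 4 of day 10 (0.19).

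SUCLA2, the ATP-forming partner, was at 24.75, 23.96, 23.1, 25.3 and 22.9 CPM on day 0 and at 35.1, 38.7, 48.3, 40.5 and 38.55 CPM on day 1. It rose by 0.74 ± 0.09 on day 1 (adjusted p = 7.68e-10) and was still higher by 0.23 ± 0.09 on day 10 (adjusted p = 0.0399), and on all 6 days each library lay above every day 0 library. The call on day 10 was lost without replicate 3 (0.22) or 5 (0.23) of day 0 or replicate 2 or 3 of day 10 (0.22 each). The log2 ratio of SUCLG1 to SUCLA2 was higher on day 1 than on day 0 by 0.40, with 4 of 5 libraries above day 0 (exact permutation p = 0.0159, adjusted p = 0.0476), and on the later days the difference was between -0.06 and 0.05 and did not pass. The GTP-forming beta subunit, SUCLG2, went the other way on day 1. It fell from 62.5 ± 2.23 to 52.8 ± 1.94 CPM (-0.24 ± 0.06, adjusted p = 0.000375) and then rose to 76.3 ± 3.38 CPM on day 2 (0.29 ± 0.06, adjusted p = 1.83e-05) and was called higher on every day after that.

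Fumarase hydrates fumarate to malate and acts in the cytosol and nucleus as well as in mitochondria. FH was at 113, 102, 99.9, 117 and 116 CPM on day 0, at 189.9, 202, 213, 204 and 210.3 CPM on day 1, and at 220.2, 224, 221, 212 and 219 CPM on day 2. No library of any later day reached down to the day 0 range. The rise was 0.90 ± 0.05 on day 1 (adjusted p = 4.34e-18) and 1.00 ± 0.05 on day 2 (adjusted p = 1.46e-19), and from day 2 on FH had the largest rise of the 9 genes on each day. Its lowest value after day 0 was 0.47 ± 0.05 on day 6, and on day 10 it stood at 0.62 ± 0.05 (adjusted p = 2.79e-12), or 1.53-fold.

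Malate dehydrogenase closes the cycle and also serves the malate-aspartate shuttle. MDH2 was at 250.3, 251.5, 216, 253 and 259 CPM on day 0 and at 229 to 255 CPM on day 1. The difference of -0.03 ± 0.06 in log2 was not called (adjusted p = 0.696), and was 0.08 without TMM factors. On day 2 it was at 333, 328, 291, 272 and 316 CPM, above every day 0 library, with a rise of 0.33 ± 0.06 (adjusted p = 1.15e-05). It was called higher on days 4, 8 and 10 as well, at 0.26, 0.27 and 0.18, and was at 0.11 on day 6 (adjusted p = 0.169). The call on day 10 was lost without replicate 3 of day 0 (0.13), whose MDH2 level was the lowest of all. In their coding entries CS and MDH2 thus both lacked a call on day 1. Both had their largest value on day 2, as did OGDH and FH.

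The steps between time points showed when these levels turned. From day 1 to day 2, CS, OGDH and MDH2 rose by 0.28, 0.16 and 0.36 on the log2 scale, and IDH3B and SUCLG1 changed by -0.28 and -0.47, so 3 of 9 were higher and 2 lower, where 20.2% and 19.4% of all entries were called. From day 2 to day 4 none was higher and 5 were lower (IDH3A, OGDH, SUCLG1, SUCLA2 and FH), against 13.9% and 16.7% of all entries, with the largest change in IDH3A at -0.67 ± 0.16 (adjusted p = 0.000699). The count of 5 lower was 2 without replicate 2 of day 2 or replicate 2 of day 4, and 3 without replicate 3 of day 2.

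From day 4 to day 6 FH alone was called lower (-0.19 ± 0.05, adjusted p = 0.0112) and none higher, against 5.98% and 6.09% of all entries. At an unadjusted p below 0.05, 6 genes were lower and 0 higher, and DESeq2 called 4 lower and 0 higher. The count of 1 lower was 5 without replicate 2 and 3 without replicate 5 of day 4, and 2 without replicate 1, 4 or 5 of day 6. From day 6 to day 8 none of the 9 was called in either direction, against 1.03% higher and 1.53% lower of all entries. At an unadjusted p below 0.05, 1 gene was higher (MDH2) and 0 lower, and DESeq2 called 1 higher and 0 lower. From day 8 to day 10 IDH3A rose by 0.65 ± 0.17 (adjusted p = 0.00834) and OGDH by 0.19 ± 0.05 (adjusted p = 0.00636), with none lower, against 5.08% and 4.97% of all entries. The count of 0 higher from day 2 to day 4 and of 0 lower from day 8 to day 10 was also 0 at an unadjusted p below 0.05 and in DESeq2.

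Other genes of the cycle that were followed are DLST, DLD, SUCLG2 and the 4 subunits of succinate dehydrogenase (SDHA to SDHD). Of these 7, 4 were called higher and 1 lower on day 1. From day 2 to day 10 the numbers called higher were 6, 5, 3, 5 and 4, with 0 lower each time. Their median log2 fold change was 0.37 on day 1 and between 0.10 and 0.32 after that. At an unadjusted p below 0.05 edgeR gave 1 lower on day 2 and 0 lower on days 4 to 10, while DESeq2 called 1 lower on day 2 and 0 after. A second gene was called lower on day 1 without replicate 2 or 5 of day 0 or replicate 5 of day 1, and 1 on day 2 without replicate 2 or 5 of day 0 or replicate 2 or 3 of day 2. SDHA, the flavoprotein of succinate dehydrogenase, had the largest rise of the list on day 2, the day with most calls, going from 169 ± 9.89 to 273 ± 12.1 CPM (log2 fold change 0.69, adjusted p = 1.21e-14). It had been at 179 ± 8.02 CPM on day 1 (adjusted p = 0.239). SDHA was higher still on day 4, at 333 ± 11.6 CPM, and its means on days 6 to 10 were 264 to 292 CPM.

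The genes around the cycle were taken as 4 lists, each shown on its day with most calls, so these counts are the highest of each list. Of all entries, 25.4% were called higher and 27.3% lower on day 1. On day 2 these shares were 23.2% and 24.4%, and on day 4 they were 19% and 20.1%. Of 14 genes of pyruvate entry, which cover the pyruvate carrier, pyruvate carboxylase and the pyruvate dehydrogenase complex with its kinases and phosphatases, 10 were higher and 3 lower on day 4, the day with most calls, with a median of 0.42. PDP1, a phosphatase that activates the complex, had the largest fall among them, from 10.8 ± 3.04 to 5.50 ± 0.554 CPM (-0.97, adjusted p = 1.96e-05). The largest fitted rise, that of the kinase PDK4, rests on 10 counts in the day 4 libraries against 0 on day 0. Of 10 genes of glutamine use and other refilling, 4 were higher and 3 lower on day 1, with a median of -0.04, or -0.03 without GLUD2, which had at most 1 count on any day. The fall of ME3, among the 3 lower, rests on 10 counts in the day 0 libraries against 1 on day 1. GOT2, the mitochondrial aspartate aminotransferase, rose from 158 ± 12.2 to 311 ± 14.3 CPM (0.98, adjusted p = 1.94e-19). PCK2, the mitochondrial enzyme that turns oxaloacetate into phosphoenolpyruvate, fell from 145 ± 12.6 to 17.1 ± 1.52 CPM (-3.08, adjusted p = 5.85e-27). On day 6, 0 of these 10 genes were higher and 2 lower, and 8 of the 14 of pyruvate entry were higher and 1 lower. Of all entries 17.5% were called higher and 17% lower on that day.

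A further list held 6 related genes, ACO1, IDH1, IDH2, MDH1, ACLY and OGDHL. Of these, 4 were higher and 1 lower on day 1, with a median of 0.74, or 0.81 without OGDHL, which had no count on either day. ACLY, which splits citrate in the cytosol, rose from 177 ± 4.04 to 409 ± 7.29 CPM (1.21, adjusted p = 9.62e-24). IDH2, the NADP-dependent mitochondrial isocitrate dehydrogenase, fell from 76.3 ± 8.16 to 48.0 ± 6.07 CPM on day 1 (-0.67, adjusted p = 3.75e-10), rose to 138 ± 10.8 CPM on day 2 (0.85, adjusted p = 6.64e-14) and was called higher on each later day. IDH2 was thus lower on the day on which IDH3A and IDH3B were highest, and higher on days 6 and 8 when IDH3A was lower. On day 2, however, IDH2, IDH3A (0.54) and IDH3B (0.58) were all called higher. IDH2 and IDH3B were also both called higher on days 4 and 8. A relation between these genes was not tested. Of 5 mitochondrial carriers of cycle intermediates, 4 were higher on day 2, with a median of 0.79, and the fifth, SLC25A12, was at 0.38 and was not called. SLC25A10, the dicarboxylate carrier, had the largest rise of these, from 26.2 ± 3.35 to 75.9 ± 5.36 CPM (1.53, adjusted p = 1.06e-16). On day 6, 1 carrier was higher and 0 lower, with a median of -0.02. Of the 6 related genes above, 3 were higher and 1 lower on day 6, with a median of 0.36.

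Among the 9 genes, the profiles most alike were those of CS and MDH2, and of IDH3B and SUCLA2. Likeness was measured as the root mean square difference of the log2 fold changes over the 6 days, which all share the day 0 libraries, so it is a description without a test. It was 0.101 for both pairs and 0.813 for IDH3A and FH, the pair least alike. In a search of 12292 other entries, the closest to FH were OSBPL11 (0.0718) and PREP (0.0740), the closest to SUCLG1 IFI27L2 (0.0445) and IQCE (0.0573), and the closest to MDH2 CDK16 (0.0354) and BZW2 (0.0535). CS was closest to TMEM69 (0.0277) and C1orf131 (0.0384), OGDH to OPA1 (0.0441) and CPSF1 (0.0547), IDH3B to NEDD8 (0.0468) and CHMP1A (0.0483), SUCLA2 to SLC5A3 (0.0430) and HMGA1 (0.0458), and IDH3G to AP1S1 (0.0476) and WRNIP1 (0.0524). IDH3A had no profile as close as these, with ACER3 at 0.121 and ITPA at 0.155. Its log2 fold changes against day 0 had SEs of 0.16 to 0.17, against 0.05 to 0.09 for the other genes. Such spread enters the distance, so IDH3A cannot be called more distinct from this.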

How the data were processed

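The authors aligned reads to the GENCODE transcriptome (GRCh38.p12) with Kallisto 0.44.0 (GC content corrected). Their tximport step adjusted for transcript length. The deposited values are these estimated counts, which are whole numbers per symbol and biotype, not normalized for library size. No rounding was needed. Every column matched a library by its title, and no 2 libraries were identical. Protein-coding entries were fitted with edgeR 4.0.16 (glmQLFit, glmQLFTest, TMM factors 0.929 to 1.08, day as factor, 35 libraries) in R 4.3.3, with Benjamini-Hochberg adjustment over all entries of a comparison and no covariate. Log2 ratios used a prior count of 2. Permutation tests were exact and two-sided, from scipy 1.17.1. The method was first tested on simulated data. Alternatives were RLE factors, no factors, filterByExpr, only the days compared, a replicate block, DESeq2 1.42.0, a 2-fold cutoff, and each library left out in turn. Counts summed over biotypes were added after the split of IDH3A had been seen.

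The genes, lists and tests were chosen with earlier results of these data known. Some genes of these lists are not reported here and were left out of the counts. Named from the lists were the largest rise and fall called on the day with most calls, and partners of the 9 genes in an enzyme. Per-kilobase levels divide CPM by the length of the MANE Select transcript, while the counts had been adjusted for length by the authors already. Deviations of same-numbered libraries of different days were at most weakly correlated (r from -0.123 to 0.136 over 105 pairs), so the numbers were not used as pairs. Still, 14 of 35 libraries were closest on average to their own number, as described at the end. The sources used here give no batch or date.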

Additional observations from a re-analysis of the deposited data

Results flagged for a closer look

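In 63 groups of 5 libraries (9 genes on 7 days), 3 had a library that stood apart from the other 4 by Dixon's test, where chance gives about 1 in 20. MDH2 on day 0 was at 215.6 CPM in replicate 3, against 250.3 to 258.7 in the others, and MDH2 on day 6 was at 293.0 CPM in replicate 5, against 256.8 to 259.9. IDH3G on day 4 was at 56.81 CPM in replicate 5, against 72.2 to 75.85 in the others. Without that library the log2 fold change of IDH3G on day 4 is positive, and it is not called either way.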

How the results depend on the processing

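Of 378 log2 fold changes of single genes under the alternatives that kept all libraries, 347 kept their direction and side of the threshold, 13 passed only there, 4 no longer passed and 14 changed sign. Without the TMM factors the median of the entries that passed the filter was 0.12, 0.13 and 0.11 (days 1, 2 and 4), against 0.0098, 0.0048 and -0.0064 with them. Leaving them out turned CS (0.0289) and MDH2 (0.0827) on day 1, IDH3G on day 4 (0.104) and IDH3A on day 10 (0.00652) positive. OGDH on day 6 was -0.00537 with RLE factors, -0.00523 in DESeq2 and -0.000153 with filterByExpr, and IDH3G on day 4 was 0.00535 with only the days compared. With summed biotypes, IDH3B was at -0.172, -0.0787 and -0.160 and IDH3G at -0.0529, -0.00625 and -0.0455 on days 6, 8 and 10.

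The median of the 9 genes was 0.502, 0.368, 0.0906 and 0.128 with summed biotypes (days 1, 2, 8 and 10), and 0.375 and 0.244 without factors (days 4 and 10). Past a 2-fold cutoff, 1 gene was higher on day 1 and 0 on the other days, with 0 lower. On day 6, 6 were higher without factors. From day 6 to day 8 DESeq2 called 1 higher. From day 4 to day 6, 2 were lower with RLE factors or only the days compared, 4 with DESeq2, filterByExpr or summed biotypes, and 6 without factors. With summed biotypes, 1, 2, 2 and 1 were lower on days 1, 4, 6 and 10. Among the other cycle genes, 2 were lower on day 1 and 1 on day 2 with RLE factors, DESeq2 and filterByExpr. The cause of these differences was not tested.

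With each library left out in turn, the number higher on day 10 was 2 to 5, the number lower was 2 to 6 from day 2 to day 4 and 1 to 5 from day 4 to day 6, and among the other cycle genes 1 to 2 were lower on day 1 and 0 to 1 on day 2. Values near zero changed sign in IDH3G on day 4 (-0.0355 to 0.0797), OGDH on day 6 (-0.0251 to 0.0368) and IDH3A on day 10 (-0.172 to 0.0381). Among log2 ratios this held for IDH3A to IDH3B on day 2 (-0.159 to 0.0242) and SUCLG1 to SUCLA2 on day 4 (-0.0016 to 0.111), day 8 (-0.0769 to 0.0227) and day 10 (-0.0515 to 0.0481, and -0.000426 with a prior count of 0.5), and it held for the coding share of CS on day 10 (-3.11 to 1.41 percentage points). Between 0 and 10 subunit ratios and 0 and 21 coding shares passed.

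The replicate numbers were not taken to pair the libraries, since 1 of 105 same-numbered pairs had a correlation over 0.1. With the replicate block, 0 of 24 subunit ratios passed, since 5 pairs cannot give a p below the threshold, and the block changed no other call. In all, 14 of 35 libraries were closest on average to their own number, where an equal spread over the 5 numbers gives 7, which is a hint from the data and not from the design. IDH3A had the fewest counts of the 9 genes, and how far depth limits each gene was not tested.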
